A study of Mus musculus with 6 samples.

Results

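Sfrp1-positive fibroblasts (FBs) of bleomycin-injured mouse lung were defined as droplet barcodes with at least 2000 unique molecular identifiers (UMIs, each standing for 1 captured RNA molecule), no UMI of the immune gene Ptprc, the endothelial gene Pecam1 or the epithelial gene Epcam, at least 1 UMI of Pdgfra, at least 2 of Sfrp1, and none of Cthrc1, Pi16 or Scara5. The rule gave 1780 of the 11752 barcodes in both bleomycin libraries, 235 of 1015 after a single dose and 1545 of 10737 after repetitive dosing; the whole series held 33286 barcodes. They were described against barcodes of the same library that met the same rule but had no Sfrp1 UMI (Sfrp1-zero FBs, 94 and 769 barcodes). The members were selected on the measured counts of Sfrp1 and of the screening genes, whose values are therefore given as description only. Chl1, Saa3 and Ndnf came with the name of the population, which was proposed from these data, and are also described without a test.

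The lung libraries came from adult male Pdgfra-GFP reporter mice, in which GFP is made under the control of the Pdgfra gene, and 3 mice were pooled in each lung library before GFP-positive cells were sorted. Bleomycin or PBS in 50 µl was given by oropharyngeal aspiration, either once or once weekly for 3 doses of 1, 1 and 0.5 U/kg, and lungs were taken 14 days after the only or last dose. The single dose is labelled 2 U/kg in the protocol and 4 U/kg in the treatment field of the same sample. Organoid libraries, in which sorted FBs from PBS- or bleomycin-dosed mice were grown with alveolar type 2 cells, entered only where named. The GFP gate follows the Pdgfra gene, so FBs with low Pdgfra could be missed. Each condition was 1 library without a replicate: no p-value was possible, differences compare libraries or barcodes within a library, and the intervals given (95%) cover counting error only.

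SFRP1 is a secreted protein that binds Wnt ligands and blocks their signal, and is made by mesenchymal cells during lung development. CHL1 is a cell adhesion molecule of the immunoglobulin family best known from neurons, SAA3 is an acute phase protein made locally in inflamed tissue, and NDNF is a secreted glycoprotein with fibronectin type III domains. Lipofibroblasts (LipoFBs) are lipid-storing alveolar FBs that support type 2 cells, whereas myofibroblasts (MyoFBs), marked in injured lung by Cthrc1, make much of the scar matrix.

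Among screened FBs (the UMI, Ptprc, Pecam1, Epcam and Pdgfra steps), 235 of 665 (35.3%, exact binomial interval 31.7 to 39.1) met the full rule after the single dose and 1545 of 4103 (37.7%, 36.2 to 39.2) after repetitive dosing. The same rule was met by 41 of 765 (5.36%) in single PBS lung and by 520 of 4852 (10.7%) in repetitive PBS lung. Barcodes differed in depth, so each was also thinned at random to 2000 UMIs. After thinning, any Sfrp1 UMI was found in 46.3% and 42.3% of screened FBs in the bleomycin libraries and in 7.19% and 8.0% in the PBS libraries. With at least 2 Sfrp1 UMIs still required after thinning, the share was 13.7% and 11.7% after bleomycin and 0.523% and 1.20% after PBS. Both bleomycin libraries therefore lay above both PBS libraries at either depth. Free RNA in the droplets gives UMIs in cells that do not make a gene. Immune barcodes (Ptprc-positive, Pdgfra-negative) thinned to 2000 UMIs held an Sfrp1 UMI in 11.1% (5 of 45) of cases after the single dose and 7.90% (23 of 291) after repetitive dosing. These shares were below those of the screened FBs.

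**Figure D1:**
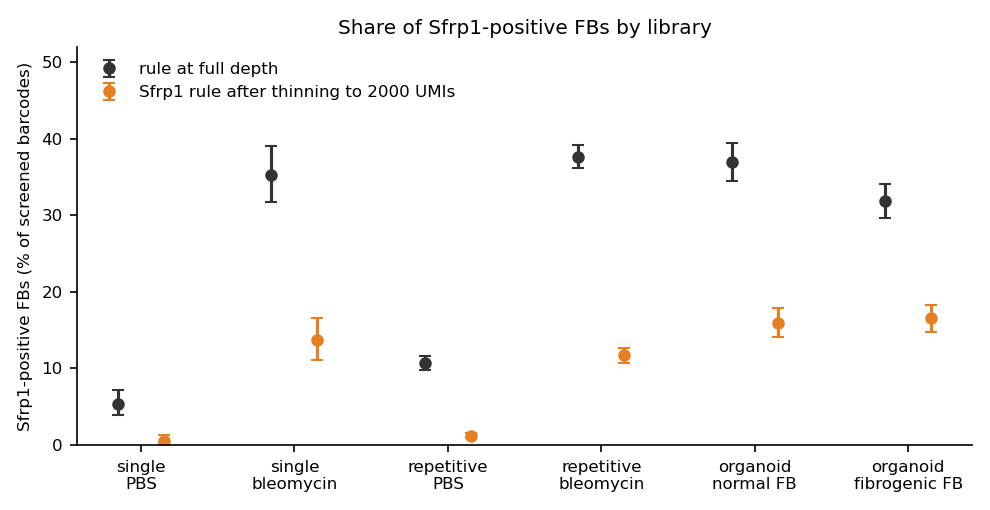
Share of screened Pdgfra-positive barcodes that met the Sfrp1-positive rule (y axis, percent) in each of the 6 libraries (x axis), at full depth (dark) and with the Sfrp1 rule applied to counts thinned to 2000 UMIs (orange). Bars are exact 95% binomial intervals for counting error; the bleomycin lung libraries lie at 35.3% and 37.7%, the PBS lung libraries at 5.36% and 10.7%.

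Sfrp1 was not restricted to the members. It was found at full depth in 81.5% and 76.9% of Cthrc1-positive FBs (at least 2 Cthrc1 UMIs; 27 and 104 barcodes in the single-dose and repetitive libraries). Adventitial FBs, taken as screened barcodes with at least 2 UMIs of Pi16 and Scara5, held it in 78.7% and 72.7%. The rule thus removed other Sfrp1-positive FBs by their Cthrc1, Pi16 or Scara5 counts. Within the members the number of Sfrp1 UMIs had a median of 7 (quartiles 3 and 13, highest 61) after the single dose and of 5 (quartiles 3 and 9, highest 106) after repetitive dosing. Just outside the threshold lay 56 and 406 barcodes with 1 Sfrp1 UMI, and just inside it lay 39 and 309 with exactly 2. Their median UMI totals were 11083.5 and 11455 in the single-dose library and 6951 and 9912 in the repetitive library.

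Depth and composition differed between the groups compared. Members had a median of 12332 UMIs per barcode after the single dose against 8102.5 in Sfrp1-zero FBs, and of 14126 against 6819 after repetitive dosing. The median mitochondrial share was 3.12% against 2.98% and 3.36% against 3.74%. In the repetitive library the Sfrp1-zero FBs also held more RNA of other cell types: the summed level of 10 epithelial markers was 75.4 UMIs per 1000000 UMIs of the group (CPM) in members and 301 CPM in Sfrp1-zero FBs, and of 14 macrophage and myeloid markers 94.2 and 273 CPM. With the Sfrp1-zero FBs weighted to the members' depth, the median log2 ratio of the myeloid markers went from -1.17 to 0.091. Immune barcodes of that library held 27224 CPM of the myeloid list. In the single-dose library the corresponding sums were 103 and 82.2 CPM for epithelial and 238 and 256 CPM for myeloid markers. The part of depth and of this other RNA in the differences below was not tested beyond the depth-matched values given. Lymphoid and plasma cell markers (11 genes) summed to 242 and 378 CPM after repetitive dosing and to 19.3 and 40.6 CPM after the single dose, and 10 endothelial markers to 78.4 and 98.6 CPM and to 126 and 205 CPM. For 8 mesothelial markers the sums were 21.4 and 31.7 CPM and 22.3 and 100 CPM, and erythrocyte genes were not measured. Defining markers at 0 in the single-dose members were Ms4a1 and Igha, Tie1 and Emcn, Scgb3a2, Lrrn4 and Muc16, and the mural genes Rgs5 and Lgr6; none of these lists had a marker at 0 in the larger repetitive set. All 30 alveolar LipoFB genes were detected in both sets of members. No barcode sequence was shared between the members of both bleomycin libraries. Of the repetitive members, 13 had a barcode sequence that also occurred in another library, and of the single-dose members 0 did.

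Chl1 was higher in members than in Sfrp1-zero FBs of both libraries. The gene lies on chr6:103510586-103750211 of GRCm38, on the plus strand, Ndnf on chr6:65671590-65712326 and Sfrp1 on chr8:23411502-23449632; all are protein coding. The summed Chl1 level was 83.5 CPM in members and 10.1 CPM in Sfrp1-zero FBs of the single-dose library, a log2 ratio of 2.92 (1.99 to 4.06; all log2 ratios are of CPM + 1). In the repetitive library it was 115 and 10.7 CPM, a log2 ratio of 3.31 (2.97 to 3.68). The mean over single barcodes, the value expected over all thinnings, gave a Chl1 ratio of 2.54 in both libraries. At least 1 Chl1 UMI was found in 78 of 235 members (33.2%) against 8 of 94 Sfrp1-zero FBs, and in 419 of 1545 (27.1%) against 40 of 769. At equal depth, thinned barcodes held Chl1 in 12.3% (8.42 to 17.2) against 4.26% (1.17 to 10.5) after the single dose, with intervals that overlap, and in 12.4% against 2.47% after repetitive dosing. The highest single barcode gave 5.2% and 2.6% of the members' Chl1 UMIs, so the level was spread over many barcodes. Immune barcodes thinned in the same way held Chl1 in 0 of 45 and 5 of 291 cases. In PBS lung Chl1 was nearly undetected in barcodes that met the same rule, with 0 UMIs in 41 barcodes of the single PBS library and 1 UMI in 520 of the repetitive PBS library. Against the limit that 3 UMIs set for the single PBS barcodes, the members' level was at least 10.7-fold higher. Sfrp1-zero FBs of PBS lung were as low, at 0 and 0.410 CPM.

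Saa3 was high in few members. Its summed level was 747 CPM in members and 145 CPM in Sfrp1-zero FBs after the single dose (log2 ratio 2.35, 2.10 to 2.62), and 517 and 58.4 CPM after repetitive dosing (3.12, 2.97 to 3.28). Detection differed between the regimens: 138 of 235 members (58.7%) held Saa3 after the single dose but 206 of 1545 (13.3%) after repetitive dosing. In the single-dose library the 5 highest barcodes gave 56.1% of the members' Saa3 UMIs and the highest alone, with 572 UMIs, gave 25.5%. The highest of the repetitive library had 1180 UMIs, 9.8% of the total. Among Sfrp1-zero FBs 1 barcode gave 58.9% and 20.4% of the Saa3 UMIs. The ratio moved in opposite directions with the way depth was matched: after thinning it was 0.80 and 1.87, and with the Sfrp1-zero FBs weighted to the members' depth it was 3.50 and 4.61. The reason was not tested. Thinned shares were 22.1% against 7.45% in the single-dose library and 7.31% against 4.81% in the repetitive library. Immune barcodes of the single-dose library held Saa3 in 17.8% (8 of 45) after thinning, with an interval that overlapped that of the members, so the single-dose share cannot be told from free RNA. In the repetitive library the immune share was 1.72% (5 of 291).

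The Saa3 gene lies on chr7:46711998-46715700 (GRCm38, minus strand, protein coding). The bases just before it are shown because Saa3 and Lcn2 are acute phase genes whose promoters are known to bind C/EBP and NF-kB factors. Both genes also had a higher summed level in members than in Sfrp1-zero FBs. The RefSeq promoter window holds 250 bases before the start; the 226 outside the annotated gene, chr7:46715701-46715926, are printed 5′ to 3′ on the gene's strand, with a match to the C/EBP-type motif in capitals.
Saa3 promoter: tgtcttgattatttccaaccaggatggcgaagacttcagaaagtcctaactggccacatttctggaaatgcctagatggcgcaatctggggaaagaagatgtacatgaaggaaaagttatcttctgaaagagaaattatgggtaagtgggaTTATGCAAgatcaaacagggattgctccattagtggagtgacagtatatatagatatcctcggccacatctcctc
The capitals match TTGCNNAA on the opposite strand, 99 to 92 bases before the start. Neither an NF-kB-type motif (GGGA, 4 bases of any kind, CC) nor the STAT-type motif TTCNNNGAA was matched in these bases on either strand. Of 32851 promoter windows of 250 bases, 9.56% held the C/EBP-type, 17.6% the NF-kB-type and 7.02% the STAT-type motif on either strand, so the match is a description of the letters and no evidence of binding.

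The level of Ndnf was 69.9 CPM in members and 21.4 CPM in Sfrp1-zero FBs after the single dose (log2 ratio 1.66, 1.00 to 2.41), and 69.8 and 21.7 CPM after repetitive dosing (1.64, 1.39 to 1.90). It was detected in 73 of 235 (31.1%) and 584 of 1545 (37.8%) members, against 14.9% and 10.7% of Sfrp1-zero FBs. After thinning the shares were 13.6% (9.50 to 18.7) against 6.38% (2.38 to 13.4) after the single dose, with intervals that overlap, and 10.6% against 3.77% after repetitive dosing. Immune barcodes thinned in the same way held Ndnf in 0 of 45 and 8 of 291 cases. The pattern was already present without bleomycin: Ndnf was at 34.5 CPM in Sfrp1-positive and 5.72 CPM in Sfrp1-zero FBs of repetitive PBS lung, a log2 ratio of 2.40 (2.14 to 2.67). In single PBS lung the levels were 23.4 and 3.08 CPM, from 9 and 11 UMIs. The Ndnf level was higher in Sfrp1-positive than in Sfrp1-zero FBs of all 4 lung libraries; Chl1 was too low in PBS lung for such a comparison.

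**Figure D2:**
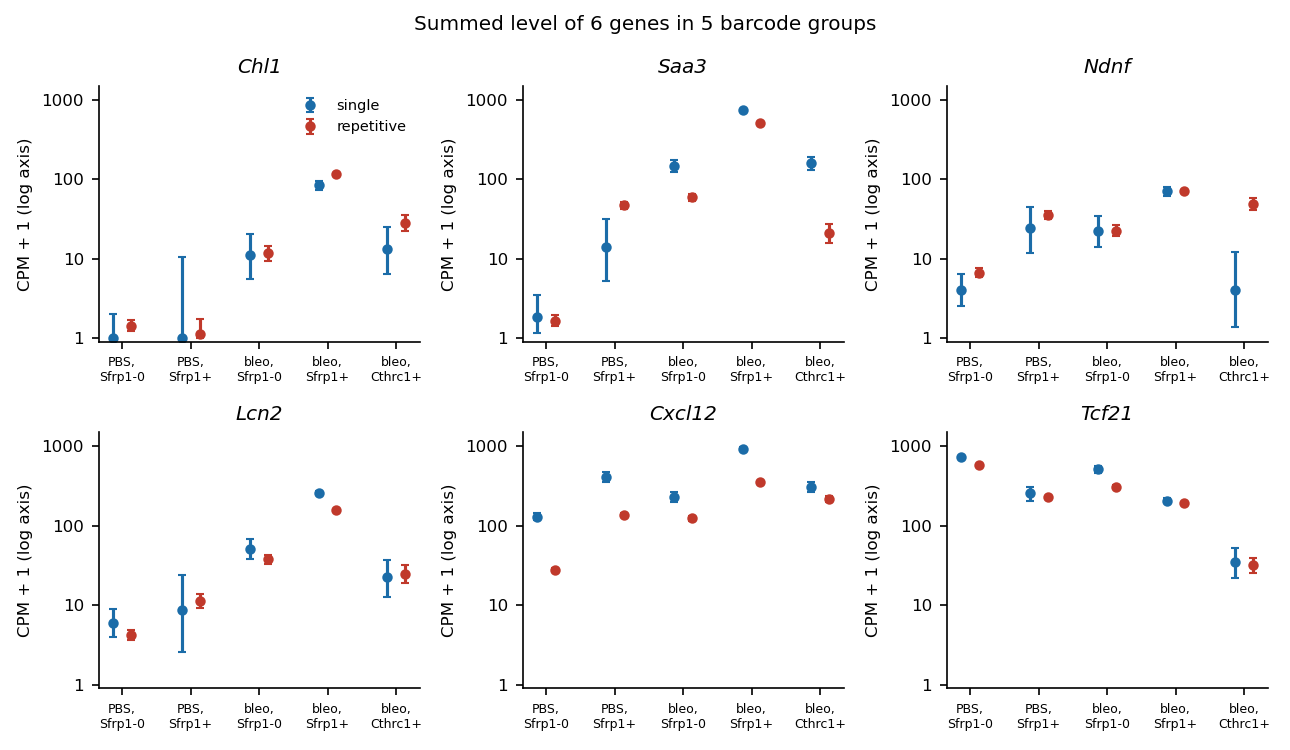
Summed levels (CPM + 1, log axis, with exact 95% Poisson intervals for counting error) of 6 genes in Sfrp1-zero and Sfrp1-positive (Sfrp1+) FBs of PBS and bleomycin (bleo) lung and in Cthrc1-positive FBs of bleomycin lung, for the single-dose (blue) and repetitive (red) libraries. Chl1 is at the floor in both PBS groups and at 83.5 and 115 CPM in the bleomycin members; Tcf21 is lower in Sfrp1-positive than in Sfrp1-zero FBs under PBS and bleomycin.

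The named genes occurred in varying combinations. Of Chl1, Saa3 and Ndnf, none was detected in 57 of 235 members (24.3%) after the single dose and in 691 of 1545 (44.7%) after repetitive dosing. A single one was detected in 39.1% and 36.6%, a pair in 26.0% and 14.3%, and all of them in 25 (10.6%) and 67 (4.3%) members. Sfrp1-zero FBs, of lower depth, lacked all of them in 51.1% and 78.7%. At equal depth (thinned) none was detected in 64.7% of members against 83.0% of Sfrp1-zero FBs after the single dose, and in 76.1% against 88.9% after repetitive dosing. Absence of a UMI at this depth does not show absence of the RNA. The population named by the rule is thus a set of barcodes with a raised summed level of these genes, and most single barcodes did not hold the whole set.

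Saa3 UMIs were more frequent in repetitive members that held a UMI of Lcn2, which encodes the acute phase protein lipocalin 2. After thinning, Saa3 was detected in 55 of 132 (41.7%) members with an Lcn2 UMI and in 58 of 1413 (4.10%) without one in that library. After the single dose the shares were 38.9% (14 of 36; 23.1 to 56.5) and 19.1% (13.9 to 25.3), with intervals that overlap. Thinned immune barcodes held Lcn2 in 2.75% (8 of 291) after repetitive dosing and in 1 of 45 after the single dose, against 8.54% and 15.3% of members. Chl1 was detected in 36.3% (41 of 113) of members with and 10.5% without a Saa3 UMI after repetitive dosing. After the single dose the shares were 23.1% (12 of 52) and 9.29%, with intervals that overlap. Where Tcf21, a transcription factor of alveolar FBs, was detected, Chl1 was found in 7.98% of repetitive members, against 14.2% where it was not. The single-dose shares were 6.90% (4 of 58) and 14.1%, again with intervals that overlap. Ndnf differed little with Saa3: 13.3% (15 of 113) of members with and 10.4% without Saa3 held it in the repetitive library. Members share a library, so these shares describe barcodes and not replicates.

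Levels within the bleomycin libraries were also set out by the number of Sfrp1 UMIs (0, 1, 2 to 3, 4 to 7, 8 to 15, and 16 or more). Only barcodes that met the other rules, with Cthrc1 at 0, were used. The classes were set by the Sfrp1 count at full depth, which goes with depth, and the levels come from barcodes thinned to 2000 UMIs. In the repetitive library Chl1 was at 15 CPM in the class without Sfrp1 and at 36.9, 53.9, 71.6, 129.9 and 304.2 CPM in the following classes. Lcn2 was at 46.2 CPM in the first class and 473.5 CPM in the last, and Ndnf at 22.1 and 124.3 CPM; single-dose Ndnf had no steady order, at 42.6 CPM in the first class, 26.8 CPM in the next, 93.2 CPM at 8 to 15 Sfrp1 UMIs and 102.3 CPM in the last. Saa3 was at 120.9, 219.2, 103.2, 225.5, 451.3 and 1571 CPM, with no order below 4 Sfrp1 UMIs. In the single-dose library Chl1 was at 21.3, 35.7, 48.4, 64.3, 84.7 and 147.7 CPM. Its single-dose intervals overlapped between all neighbouring classes, and were 5.80 to 54.5 CPM in the first and 78.7 to 252.6 CPM in the last class. Saa3 (361.7 CPM in the first and 1034 CPM in the last class) and Lcn2 (47.9 to 612.9 CPM) had no steady order in that library. The alveolar genes went the other way: in the repetitive library Tcf21 was at 277.0 CPM without Sfrp1 and 142.9 CPM in the highest class. Between them it was nearly flat, at 228.4 to 237.7 CPM from 1 to 15 Sfrp1 UMIs. After the single dose Tcf21 was at 547.9 CPM in the first and 102.3 CPM in the last class. Inmt, an alveolar FB methyltransferase, was at 1982 and 934 CPM in these classes after repetitive dosing, and at 3468 and 841 CPM after the single dose. The median UMI total went from 6819 to 21804 and from 8102.5 to 15917.5 over the same classes, and its part was not tested beyond the thinning.

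**Figure D3:**
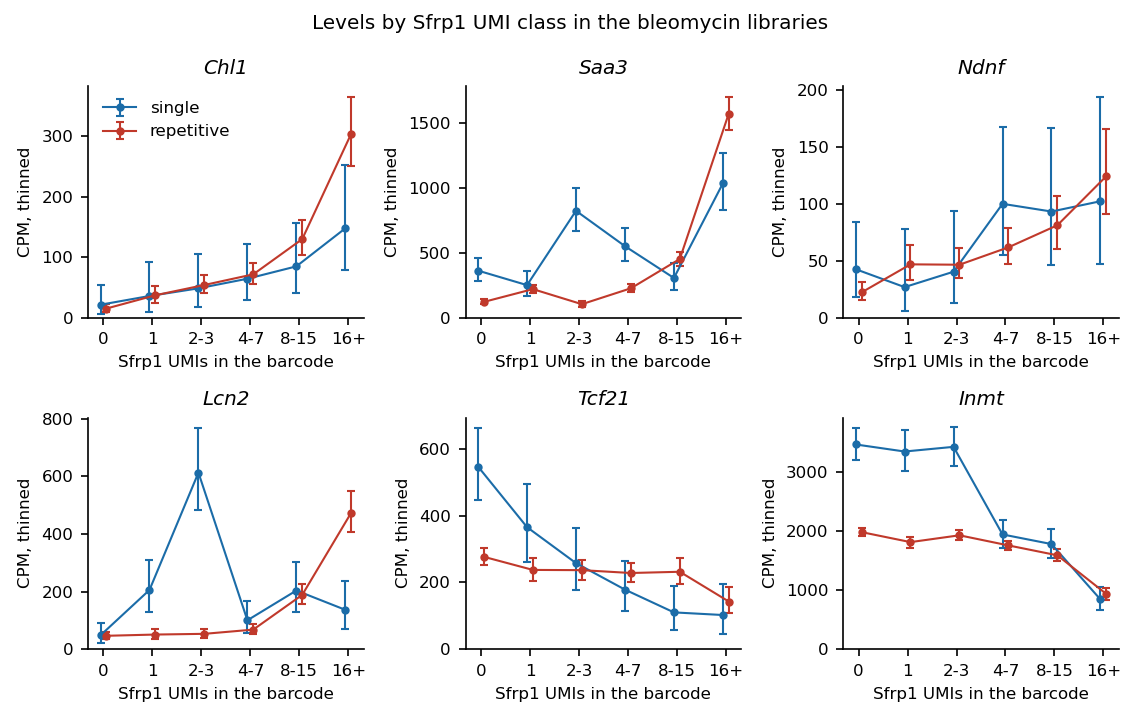
Levels of 6 genes (CPM of barcodes thinned to 2000 UMIs, with exact 95% Poisson intervals) by the number of Sfrp1 UMIs in the barcode, in the single-dose (blue) and repetitive (red) bleomycin libraries. Chl1 is higher in each successive class in both libraries, from 15 to 304.2 CPM in the repetitive one. Its neighbouring intervals overlap throughout in the single-dose library and from 1 to 7 Sfrp1 UMIs in the repetitive one. Tcf21 and Inmt are lowest in the class of 16 or more.

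Over all genes, the members and the Sfrp1-zero FBs were close. Of 10487 genes measured in the repetitive library (a mean of at least 5 CPM over both groups), 111 (1.06%) were at least 2-fold higher and 84 (0.801%) at least 2-fold lower in members. Of 9675 genes in the shallower single-dose library, 284 (2.94%) were higher and 309 (3.19%) lower. The single-dose counts were much larger after thinning, which leaves fewer UMIs per gene, and smaller with a larger pseudocount (values below). The median log2 ratio of all genes was -0.02 and -0.04. Among 8813 genes measured in both libraries, 48 were at least 2-fold higher in both, which is 20.8% of the 231 higher after the single dose and 59.3% of the 81 higher after repetitive dosing. At least 2-fold lower in both were 24, or 11.1% of 216 and 50.0% of 48, and 4 genes were past 2-fold in opposite directions: Bpifa2, Mmp8, Ifi47 and H2-Q6, named after their values were seen, were lower after the single dose and higher after repetitive dosing.

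**Figure D4:**
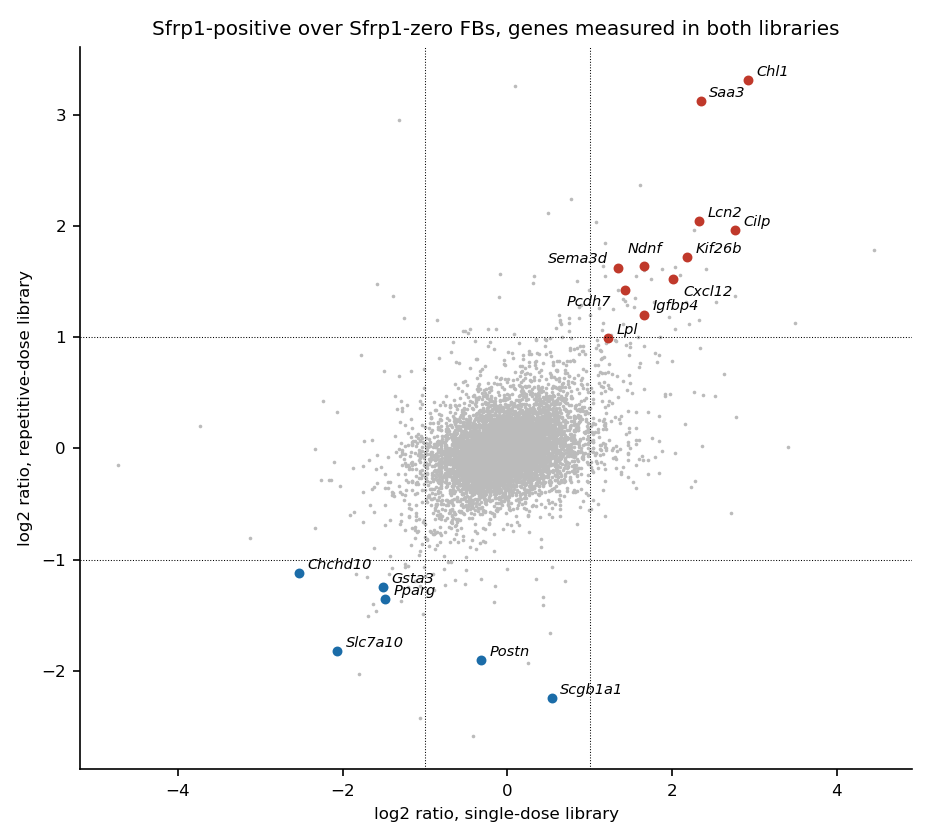
Log2 ratio of CPM + 1 in Sfrp1-positive over Sfrp1-zero FBs for each gene measured in both bleomycin libraries, single dose on the x axis and repetitive dosing on the y axis, with dotted lines at 2-fold. Named genes above the upper line (red) and below zero (blue) include Chl1 at 2.92 and 3.31 and Slc7a10 at -2.06 and -1.82.

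Most acute phase and cytokine genes were higher in members. Of the list's 37 measured genes in the repetitive library, 7 were at least 2-fold higher (1.06% of all genes were) and none was 2-fold lower (0.801%). By any amount 32 were higher (46.3% of all genes were), with a median log2 ratio of 0.35. In the single-dose library 9 of 35 were at least 2-fold higher (2.94% of all genes were). There 1 was lower (3.19% of all genes were), Cxcl13 at -3.74. By any amount 30 were higher (45.7% of all genes were) and the median was 0.47. Lcn2 was at 259 CPM in members and 50.7 CPM in Sfrp1-zero FBs after the single dose (log2 ratio 2.33, 1.90 to 2.79), and at 156 and 37.1 CPM after repetitive dosing (2.04, 1.85 to 2.24). In the mean over single barcodes, the value expected over all thinnings, its ratios were 2.22 and 1.45. Cxcl12, the chemokine that binds CXCR4, was at 939 and 232 CPM (2.01) and at 355 and 123 CPM (1.52). In the mean over single barcodes its ratios were 1.92 and 1.16. It was detected at full depth in 94.9% and 81.5% of members, shares that also count free RNA. Tnfsf8, the ligand of CD30, was higher by 1.61 and 2.37, with 32.8% and 26.3% of the members' UMIs in 1 barcode. Haptoglobin (Hp) had log2 ratios of 0.82 and 0.37. Some cytokines rested on 1 barcode: Il11 had a log2 ratio of 3.41 after the single dose with 66.2% of its UMIs in 1 member, and 0.01 after repetitive dosing.

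LipoFB genes were lower in members. Of 29 measured alveolar LipoFB genes in the repetitive library, 6 were at least 2-fold lower (0.801% of all genes were), none was 2-fold higher and 2 were higher by any amount (46.3% of all genes were), with a median log2 ratio of -0.48. After the single dose 6 of 28 were at least 2-fold lower (3.19% of all genes were) and 1 higher (2.94%), 2 were higher by any amount (45.7% of all genes were) and the median was -0.57. Slc7a10, a transporter of small neutral amino acids, was at 21.6 CPM in members and 93.5 CPM in Sfrp1-zero FBs (log2 ratio -2.06), and at 11.0 and 41.2 CPM after repetitive dosing (-1.82). Pparg, the nuclear receptor that drives lipid storage, had ratios of -1.48 and -1.35, the first from 9 UMIs in each group. Gsta3, a glutathione transferase, was at -1.5 and -1.25, and Tcf21 at -1.30 and -0.68. Fatty acid binding proteins outside the list were lower as well: Fabp3 was at -1.47 and -1.25 and Fabp5 at -1.44 and -1.13. Lpl, which encodes lipoprotein lipase, went against the list, with ratios of 1.22 and 0.99. Fabp4 was at -0.42 and -2.59, with 79.6% of the UMIs of the repetitive Sfrp1-zero FBs in 1 barcode.

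Many of these differences were also found between Sfrp1-positive and Sfrp1-zero FBs of PBS lung, in barcodes that the choice of members did not use. In repetitive PBS lung (520 and 3260 barcodes, 9996 genes measured), 271 genes (2.71%) were at least 2-fold higher and 110 (1.10%) lower in Sfrp1-positive FBs. All 29 measured acute phase and cytokine genes were higher there by any amount, where 42.6% of all genes were, 12 of them by 2-fold or more, with a median log2 ratio of 0.86. Of 28 alveolar LipoFB genes, 26 were lower and 7 lower by 2-fold or more, with a median of -0.56. In single PBS lung (41 and 527 barcodes), where 5.83% of genes were 2-fold higher, 6.52% lower and 48.3% higher by any amount, the medians of these lists were 0.54 and -0.69. Tcf21 was at 227 and 577 CPM in repetitive PBS lung (-1.34), and Slc7a10 at 26.3 and 94.1 CPM (-1.80). Saa3 was at 46.3 and 0.645 CPM, but 78.9% of the UMIs of the Sfrp1-positive FBs came from 1 barcode and 10 of 520 barcodes held it. Lcn2 was at 10.4 and 3.28 CPM (1.41, 1.02 to 1.81). In single PBS lung Lcn2 rested on 3 and 18 UMIs and Saa3 on 5 and 3. Depth differed between the Sfrp1-positive and Sfrp1-zero FBs, with medians of 13957 and 10072 UMIs in repetitive PBS lung. In single PBS lung the medians were 9498 and 6820 UMIs. The ratios within PBS lung were not matched for depth. Other RNA differed between these groups too: in single PBS lung macrophage and myeloid markers summed to 67.6 CPM in Sfrp1-positive and 657 CPM in Sfrp1-zero FBs, with 9 of 9 measured genes at least 2-fold lower (median -3.33) and 8 of 14 markers at 0, among them Cd68 and Csf1r. In repetitive PBS lung the myeloid sums were 30.2 and 31.8 CPM, and epithelial markers summed to 52.8 and 211 CPM, with 3 of 4 at least 2-fold lower (median -2.10). Adventitial FB markers were at least 2-fold higher in Sfrp1-positive FBs for 4 of 10 genes in single and 4 of 11 in repetitive PBS lung. None was 2-fold lower, and 5.83% and 2.71% of all genes were higher. Their part in the result was not tested. The difference between the PBS and bleomycin ratios was not tested, since each comes from 1 library.

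Secreted growth regulators included genes that were also higher in Sfrp1-positive FBs of PBS lung. Igfbp4, which binds insulin-like growth factors, was at 2079 CPM in members and 657 CPM in Sfrp1-zero FBs after the single dose (log2 ratio 1.66), and at 634 and 275 CPM after repetitive dosing (1.20). Its PBS ratios were 1.65 and 2.00. Gdf10, a BMP family ligand also named Bmp3b, had ratios of 2.10 and 1.56 after bleomycin and of 0.54 (-0.22 to 1.24) and 1.99 under PBS. Midkine (Mdk) had ratios of 1.16 and 1.13, and of 0.83 and 1.71 under PBS. Vegfa, which acts on endothelium, was lower, at -0.85 and -0.60. In the whole list of growth factors and receptors, 5 of 25 were at least 2-fold higher and 3 lower after the single dose (2.94% and 3.19% of all genes were), and 5 of 27 and 1 after repetitive dosing (1.06% and 0.801% of all genes), with medians of 0.27 and 0.12. Runx1, a Runt-family transcription factor, was at 92.9 and 38.3 CPM (1.26) and at 206 and 102 CPM (1.01). It was at 52.2 and 16.9 CPM in Sfrp1-positive and Sfrp1-zero FBs of repetitive PBS lung, and at 10.4 and 5.32 CPM in single PBS lung, from 4 and 19 UMIs.

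Neural-type adhesion and guidance genes had medians of 0.06 and -0.12. After the single dose 3 of 21 genes were at least 2-fold higher and 3 lower, where 2.94% of all genes were higher and 3.19% lower. After repetitive dosing 5 of 28 were higher and none lower, beside 1.06% and 0.801% of all genes. Kif26b, a kinesin-family protein linked to Wnt5a signalling, was the highest of the list at 2.19 and 1.72, and was almost undetected in PBS lung, where Sfrp1-positive FBs held 0 and 11 UMIs. Sema3d, a secreted guidance semaphorin, was at 1.35 and 1.62. Csmd1 and the ephrin ligand Efna5 were at 0.75 and 1.13 and at 0.64 and 1.15. Pcdh7, a protocadherin outside the list, was at 1.43 in both bleomycin libraries, with 363 and 134 CPM after repetitive dosing. In repetitive PBS lung Pcdh7 and Sema3d were at 1.99 and 2.09, and Kif26b was under the limit of 5 CPM. In single PBS lung no difference was detectable, with Pcdh7 at 0.03 (-1.73 to 2.49) and Sema3d at 0.09 (-1.72 to 1.68).

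Medians of the Wnt list were near 0, at 0.07 and 0.01. After the single dose 4 of 26 measured genes were at least 2-fold higher and 4 lower, where 2.94% of all genes were higher and 3.19% lower. After repetitive dosing none was higher and 1 lower, beside 1.06% and 0.801% of all genes. The higher genes were Frzb, Dkk2, Nkd2 and Ror1, and the lower ones Sfrp5 (-3.33), Rspo1, Wnt11 and Wnt4 after the single dose and Lgr6 (-1.56) after repetitive dosing; those outside the naming rule are named here after their values were seen. Of the single-dose genes all but Wnt4 (117 and 74 UMIs) had at most 14 UMIs in Sfrp1-zero FBs, and Wnt4 was at -1.08 after the single dose and 0.09 after repetitive dosing. The receptor Ror1 was at 1.10 and 0.66. From 6 UMIs in Sfrp1-zero FBs, its single-dose ratio was -0.30 in 1 random thinning, in which Dkk2 and Nkd2 were also below 0, and 0.66 in the mean over single barcodes, the value expected over all thinnings. Fzd2 was at 0.71 and 0.41. Ligand Wnt2, an alveolar FB gene, was at -0.59 and -0.63, and Notum, which inactivates Wnt ligands, at -0.88 and -0.74. Genes of the TGF-beta and BMP pathway had medians of 0.01 and 0.14: follistatin (Fst), which binds activins, was at 1.82 and 0.78, Tgfb3 at 0.87 and 0.85, and Ccn2, a target of TGF-beta, at -0.77 and -1.09.

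Few matrix genes of members were past 2-fold over Sfrp1-zero FBs of the same library. Fibrillar matrix and matricellular genes had medians of 0.26 and -0.02, with 2 of 37 at least 2-fold higher and 1 lower after the single dose (2.94% and 3.19% of all genes were), and 0 of 37 higher and 2 lower after repetitive dosing (1.06% and 0.801% of all genes). Col1a1 had log2 ratios of 0.71 and 0.26 and Col3a1 of 0.71 and 0.42. In thinned barcodes Col3a1 was at 4245 CPM without Sfrp1 and 8148 CPM with at least 16 Sfrp1 UMIs after the single dose, and at 4069 and 6347 CPM after repetitive dosing; Col1a1 was at 2016 and 3375 CPM and at 1969 and 2452 CPM. The list summed to 35287 and 48796 CPM and to 30239 and 37307 CPM in these classes. In PBS lung its medians were 0.62 and 0.58, with 28 of 33 and 24 of 32 genes higher by any amount in Sfrp1-positive FBs (48.3% and 42.6% of all genes were). Timp1, an inhibitor of matrix metalloproteinases, was at 0.56 and 0.64. Tenascin C (Tnc) was lower, at -0.39 and -0.74, as was periostin (Postn), at -0.32 and -1.90. Elastic fibre genes had medians of 0.05 and -0.15, with Fbln5 at -1.15 and -0.72 and Mfap2 at 0.60 and 0.71. No contractile gene was past 2-fold in either library, of 17 and 18 measured, nor was any p53 target (12 and 12) or adventitial marker (13 and 12). Spp1 was at 0.06 and -0.14, with 83.0% and 52.3% of the UMIs of the Sfrp1-zero FBs in 1 barcode.

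Genes on no list that were higher in both bleomycin libraries included Cilp, a cartilage intermediate layer protein, at 44.3 and 5.63 CPM (log2 ratio 2.77) and 61.9 and 15.1 CPM (1.96); 1 barcode gave 27.1% of its single-dose UMIs. The metallothionein Mt2 was at 2404 and 947 CPM (1.34) and at 200 and 74.0 CPM (1.42). Ccbe1, Ildr2, Ace, Pdpn, Plac8, Pdgfrl, Hk2, Ptger3 and Lbp had log2 ratios between 1.07 and 2.21 in each library. Among them Ace encodes angiotensin-converting enzyme, Pdpn podoplanin and Lbp the lipopolysaccharide-binding protein, another acute phase protein. The lower genes were Fabp3, Fabp5, Chchd10, Dpep1, Aqp1, Slc1a4, Mapt, Scn3a and Car2, between -0.96 and -2.52. The single-dose Aqp1 ratio changed direction after thinning. Of the remaining lists, mesenchymal transcription factors had medians of 0.16 and 0.25 (2 of 27 and 1 of 29 at least 2-fold higher, none lower) and AP-1 and stress genes of -0.12 and 0.39. Cycling genes had medians of 0.80 (4 of 9 higher) and 0.47 (2 of 8 higher). Of all genes 2.94% were higher after the single dose and 1.06% after repetitive dosing. The cycling genes rested on few barcodes: 10 of 235 members and 3 of 94 Sfrp1-zero FBs held a Mki67 or Top2a UMI after the single dose. After repetitive dosing 25 of 1545 and 9 of 769 did. Of the genes on no list, several also differed between Sfrp1-positive and Sfrp1-zero FBs of PBS lung. There Hk2 was at 2.78 in the single and 2.06 in the repetitive library, Ildr2 at 2.41 and 3.00, Pdpn at 2.16 and 2.11, Plac8 at 2.10 and 2.07, Mt2 at 2.08 and 1.80, and Ace, Lbp and Pdgfrl between 1.36 and 2.31. Ccbe1 was at -0.05 and -0.08, with intervals that hold 0, and Ptger3 was under 5 CPM in both groups. Cilp was at 6.77 and 1.11 CPM in repetitive PBS lung, a log2 ratio of 1.88 (1.34 to 2.45) although the mean of the groups is under the limit of 5 CPM, and had 0 and 8 UMIs in single PBS lung. Of the lower genes Mapt was at -2.14 and -1.27 and Fabp3 at -1.55 and -2.18 in PBS lung, while Dpep1, Scn3a, Car2 and Chchd10 were between -0.28 and -0.93. Slc1a4 was at 0.23 (-0.62 to 1.00) in single and -0.79 in repetitive PBS lung, and Aqp1 at -0.03 (-1.38 to 1.13) and 0.63, the second from a mean under 5 CPM. Fabp5 was under 5 CPM on average in both.

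Members were also set against barcodes of the same rule in PBS lung of the same regimen. Both groups were chosen on Sfrp1 counts, so its levels are description only. They were 768 CPM in members and 302 CPM in PBS barcodes after the single dose, and 533 and 236 CPM after repetitive dosing. Members held more matrix RNA. Of 36 fibrillar matrix genes 21 were at least 2-fold higher and 1 lower after the single dose, where 11.3% of all genes were higher and 7.32% lower, and of 35 genes 18 were higher and none lower after repetitive dosing, where 4.48% were higher and 2.40% lower. The list medians were 1.11 and 1.05, against 0.07 and 0.12 over all genes. Col3a1 was higher by 1.30 and 1.5 and Col1a1 by 1.29 and 1.27. Tnc was not detected in single PBS barcodes, a difference of at least 43.7-fold, and was higher by 3.72 after repetitive dosing. Those PBS barcodes were low in Tnc: the repetitive ones held 35.7 CPM, against 238 CPM in Sfrp1-zero FBs of the same library. In single PBS lung the Sfrp1-zero FBs held 65 Tnc UMIs, or 18.2 CPM. The Tnc differences are thus to Sfrp1-positive barcodes and not to all FBs of PBS lung. Spp1, a gene that macrophages also make, was at 3653 and 583 CPM in members and at 0 UMIs in both PBS groups. The 5 highest barcodes held 74.9% and 43.0% of the members' Spp1 UMIs. It was found in 97.9% and 24.3% of members and in 88.9% and 34.0% of immune barcodes of the same libraries, at lower median depths of 6527 and 4679 UMIs, so the repetitive share is not above the level seen outside FBs and no fold is given. Lcn2 was higher by 4.88 and 3.78 and Inmt lower by log2 ratios of -2.02 and -1.5. Tcf21 was nearer to the median of all genes, at -0.30 and -0.23. AP-1 and stress genes were lower, with 15 of 18 and 9 of 18 past 2-fold. The acute phase list differed between the regimens, with medians of 1.20 (19 of 36 higher, 1 lower) and 0.09 (7 of 35 higher, 3 lower), the second of which is under the median of all genes. RNA of immune cells moved with these differences: macrophage and myeloid markers summed to 238 CPM in members and 67.6 CPM in single PBS barcodes (7 of 7 measured at least 2-fold higher, median 2.06) and to 94.2 and 30.2 CPM in the repetitive libraries (3 of 3, median 1.67). Lymphoid and plasma cell markers summed to 242 and 3.90 CPM in the repetitive libraries (4 of 4 higher, median 5.18) and to 19.3 and 15.6 CPM after the single dose, where epithelial markers were at 103 and 739 CPM. Adventitial FB markers summed to 5244 CPM in members and 20374 CPM in single PBS barcodes (4 of 13 higher, 3 lower). In the repetitive libraries they were at 9102 and 19246 CPM (2 of 12 higher, 3 lower). Their part in the result was not tested. The libraries of PBS and bleomycin lung are separate, so library and treatment cannot be told apart.

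Cthrc1-positive FBs of the same libraries were also compared with the members. The groups were chosen on opposite Cthrc1 counts, so genes that go with Cthrc1 were bound to differ. Cthrc1-positive FBs were also fewer than Sfrp1-zero FBs, with 27 and 104 barcodes against 94 and 769. The shares of genes past 2-fold in these comparisons are therefore not at like group size. At least 2-fold higher in members were 9.86% of 9627 genes after the single dose and 5.11% of 10560 after repetitive dosing, and 6.89% and 4.89% were lower. Cthrc1-positive FBs were deeper, with medians of 19851 and 18798 UMIs per barcode against 12332 and 14126 in members. Myeloid markers summed to 238 CPM in members and 141 CPM in Cthrc1-positive FBs after the single dose. After repetitive dosing they were at 94.2 and 42.0 CPM. Lymphoid and plasma cell markers were at 19.3 and 20.1 CPM and at 242 and 30.1 CPM. Endothelial markers were at 126 and 35.6 CPM and at 78.4 and 32.6 CPM. The part of this other RNA was not tested. Alveolar LipoFB genes were higher in members: 20 of 27 and 20 of 28 were past 2-fold, 2 and 1 were lower, and the medians were 1.97 and 1.70. Ces1d, a carboxylesterase, was at 565 CPM in members and 49.5 CPM in Cthrc1-positive FBs (log2 ratio 3.49), and at 486 and 56.4 CPM after repetitive dosing (3.09). Hsd11b1, which regenerates active glucocorticoid, was at 2.57 and 2.98. Tcf21 was at 2.57 and 2.61 and Gsta3 at 3.11 and 4.27. The levels of Tcf21 and Gsta3 in members thus lay between those of Sfrp1-zero and Cthrc1-positive FBs in both libraries. Acute phase and cytokine genes were higher in members too, with medians of 1.24 (19 of 36 higher, 3 lower) and 0.91 (16 of 37 higher, 6 lower).

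MyoFB genes were correspondingly low in the members. Postn was at 10.7 CPM in members and 246 CPM in Cthrc1-positive FBs (log2 ratio -4.41), and at 7.19 and 313 CPM after repetitive dosing (-5.26). Grem1, a secreted BMP antagonist, was at -4.41 and -4.88, Inhba, an activin subunit, at -4.18 and -4.78, Col8a1 at -5.83 and -5.79 and Thbs4 at -5.40 and -5.49. Contractile genes (0 of 19 and 0 of 17 higher, 8 and 5 lower) and cycling genes (0 of 16 and 0 of 13 higher, 11 and 9 lower) were lower as lists. Of all genes 6.89% and 4.89% were at least 2-fold lower. The cycling genes rested on few barcodes: 4 of 27 and 3 of 104 Cthrc1-positive FBs held a Mki67 or Top2a UMI. Among members 10 of 235 and 25 of 1545 did. Spp1 was at -1.59 and -3.82 and Tagln at -2.27 and -2.52. Fibrillar matrix genes had medians of -0.52 and -0.79, with 12 of 39 and 19 of 40 at least 2-fold lower, and Col1a1 was at -1.18 and -1.36 while Col3a1 was at 0.56 and 0.00. Chl1, Saa3 and Lcn2 were higher in members than in Cthrc1-positive FBs, Chl1 by 2.66 and 2.02, Saa3 by 2.24 and 4.63 and Lcn2 by 3.52 and 2.66. Much of the members' single-dose Saa3 came from few barcodes. As given above, the interval of its share in thinned members overlapped that of immune barcodes there, and the part of free RNA was not tested. Ndnf was higher by 4.11 after the single dose, where Cthrc1-positive FBs held 2 UMIs, and by 0.52 after repetitive dosing. Because the rule sets Cthrc1 to 0 in members and at least 2 in the other group, genes that go with Cthrc1 were bound to differ.

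**Figure D5:**
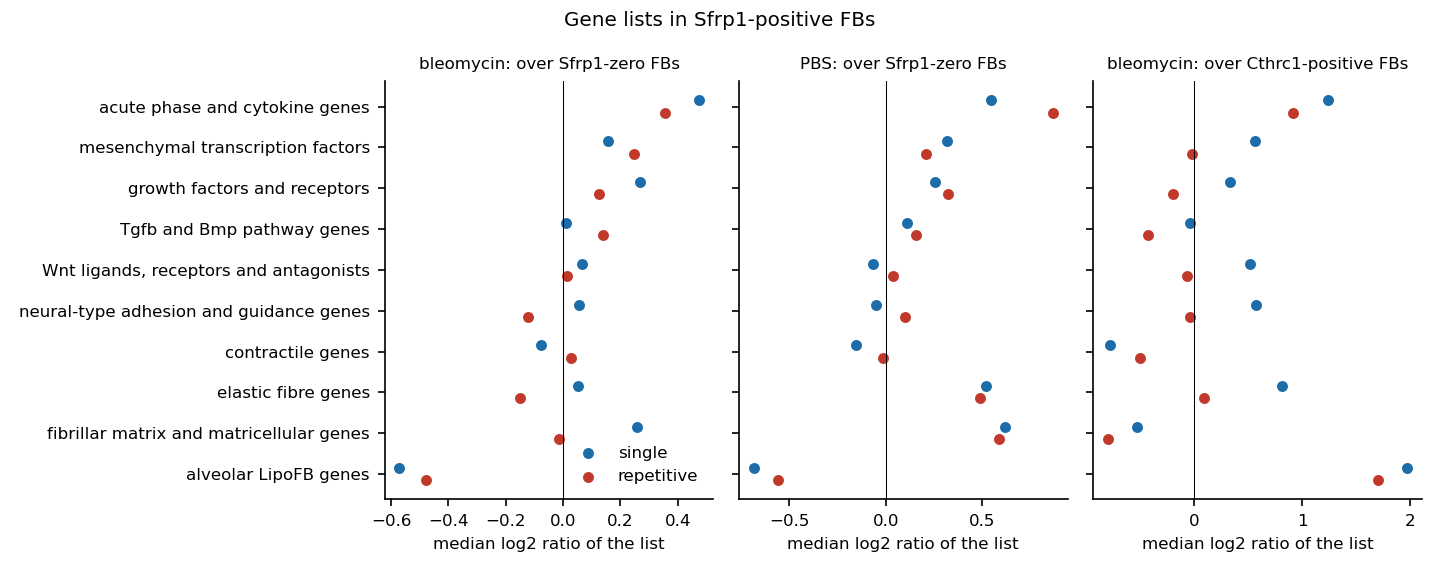
Median log2 ratio of 10 gene lists in Sfrp1-positive FBs over Sfrp1-zero FBs of bleomycin lung (left), over Sfrp1-zero FBs of PBS lung (middle) and over Cthrc1-positive FBs of bleomycin lung (right), for single-dose (blue) and repetitive (red) libraries; the x axes differ in range. Acute phase genes lie above 0 and alveolar LipoFB genes below 0 in both left panels, and the LipoFB genes lie at 1.97 and 1.70 over Cthrc1-positive FBs.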

How the data were processed

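The 6 libraries were droplet single-cell RNA-Seq of sorted GFP-positive lung cells or of organoids. The authors deposited a table of raw UMI counts per gene and barcode for each library; the submitters' processing notes name Cell Ranger 3.0.1, Seurat 3 and the build mm10. Barcode tables were used as deposited and summed to 7201081 to 238618743 UMIs per library (11869967 and 68354458 in the bleomycin libraries). Counts were summed over the barcodes of a group, divided by the group's total and given as CPM; ratios are log2 of CPM + 1. A gene was measured at a mean of at least 5 CPM over both groups, and 2-fold is a description of size, not a test, since each condition was 1 library. Intervals (95%; exact Poisson, Clopper-Pearson binomial, or binomial for a ratio) cover counting error only. Doublets were not called; 1 alternative left out barcodes above the 95th percentile of UMIs. Python 3.11.15, numpy 2.4.6, scipy 1.17.1, pandas 2.3.3 and matplotlib 3.10.9 were used, and the ratio script was tested on simulated data.

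The members and the 22 gene lists were chosen with earlier results of these data known. Named were the rule genes, the 4 highest and 3 lowest genes of each list over both bleomycin libraries, the 12 highest and 12 lowest genes on no list with a mean of at least 20 CPM, the 8 highest and 8 lowest against Cthrc1-positive FBs, and control genes; the text gives a selection of them. Tcf21, Inmt, Hp, Spp1 and, against Sfrp1-zero FBs, Gsta3 and Col1a1, as well as the PBS and Cthrc1 values of genes named for another comparison, were added after their values were seen. Alternatives changed the UMI minimum (5000), the Sfrp1 minimum (4), mitochondrial share (10%), cycling barcodes, depth (thinned or weighted), centring, the level filter (1 CPM), the pseudocount (5 CPM) and, added after seeing the data, leaving out the highest barcode of each gene; the comparisons with and within PBS lung were also added then. Sequence and gene positions came from RefSeq and Gencode on GRCm38. The cells of 1 library come from 3 pooled mice whose identity the files do not give.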

Additional observations from a re-analysis of the deposited data

Results flagged for a closer look

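Among genes on the lists or named by the rule, 3 had a ratio of Sfrp1-positive over Sfrp1-zero FBs on opposite sides of 0 in the 2 bleomycin libraries with intervals that each left out 0 and only the single-dose value past 2-fold. They are apart from the 4 genes past 2-fold in opposite directions among all genes. They were picked after their values were seen, and the difference between the regimens was not tested. Atf3, a stress-induced transcription factor, had a log2 ratio of -1.05 after the single dose (30.0 and 63.1 CPM) and of 0.11 after repetitive dosing. Ccl8, a chemokine, was at 2.72 after the single dose, from 39 and 1 UMIs, and at -0.58 after repetitive dosing, from 104 and 45 UMIs. Tgfbr1, a TGF-beta receptor, was at 1.38 (128 and 14 UMIs) and at -0.21.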

How the results depend on the processing

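No paired analysis was possible because each condition was 1 library with no replicate number. The share of Sfrp1-positive FBs (35.3% and 37.7%) was 26.0% and 24.5% with at least 4 Sfrp1 UMIs and 13.7% and 11.7% after thinning; the repetitive share was also 46.1% at 5000 UMIs and 34.9% without the top 5% of barcodes. Over Sfrp1-zero FBs of the single-dose library, 284 genes were higher and 309 lower: 1091 and 1266 after thinning, 652 and 758 at 1 CPM, and 126 and 132 with a pseudocount of 5. In the repetitive library, 111 and 84 became 176 and 190 at 1 CPM and 70 and 39 with that pseudocount, and 133 were lower after thinning. Over Cthrc1-positive FBs, 949 and 663 single-dose genes became 2489 and 1993 after thinning, 1449 and 1082 at 1 CPM, and 593 and 440 with the pseudocount; 540 and 516 repetitive genes became 1200 and 975 after thinning and 845 and 814 at 1 CPM. Counts past 2-fold thus depend on depth and the filter, and thinning leaves fewer UMIs per gene. The acute phase median (0.47, single dose) was 0.61 at 5000 UMIs, 0.59 with 4 Sfrp1 UMIs, 0.34 thinned and 0.71 without the highest barcode; the repetitive 0.35 was 0.46, 0.51, 0.24 without the top 5%, 0.43 weighted by depth and 0.50 without the highest barcode. Of 104 values past 2-fold for genes named over Sfrp1-zero FBs, 69 were still past it in the same direction after thinning, 87 with depth weighting, 83 with a pseudocount of 5, 93 without the top 5% of barcodes and 93 without the highest barcode; the other settings kept 99 to 104. After thinning 4 reversed, the single-dose ratios of Ror1 (-0.30), Nkd2 (-0.29), Dkk2 (-2.66) and Aqp1 (0.39), and the repetitive median of macrophage and myeloid markers (-1.17) was 0.091 when weighted by depth; the cause was not tested.

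Chl1 (2.92 and 3.31) had log2 ratios of 3.15 and 3.75 weighted, 2.41 and 2.51 thinned, and 3.12 and 3.50 without the highest barcode. For Saa3 (2.35 and 3.12) they were 3.50 and 4.61, 0.80 and 1.87, and 3.14 and 3.28; for Ndnf 1.86 and 1.80, 1.80 and 1.39, and 1.70 and 1.65; and for Lcn2 2.27 and 1.65, 2.73 and 1.38, and 2.22 and 2.25. Thinned single-dose values rest on few UMIs and differ between random draws. The mean over single barcodes, chosen after seeing the data, gave 2.54 and 2.54 for Chl1, 0.86 and 1.84 for Saa3, 1.61 and 1.48 for Ndnf, and 2.22 and 1.45 for Lcn2; in the single-dose Sfrp1-zero FBs it leaves an expected 2.58 Chl1 and 4.71 Ndnf UMIs.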

Other observations

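Organoids held barcodes that met the same rule. After 14 days of culture, 558 of 1509 screened FBs (37.0%) with normal FBs and 559 of 1754 (31.9%) with fibrogenic FBs were Sfrp1-positive, at median depths of 45424 and 55362 UMIs; after thinning, 15.9% and 16.5% held at least 2 Sfrp1 UMIs and met the other rules. Chl1 was at 107 and 32.3 CPM in Sfrp1-positive organoid FBs, and Saa3 at 679 and 351 CPM. Ndnf was low, at 1.78 and 3.88 CPM, as were the alveolar genes Tcf21 (22.6 and 23.6 CPM) and Inmt (35.8 and 74.5 CPM). Sfrp1-zero FBs were few, with 58 and 67 barcodes, and shallower, at median depths of 30857.5 and 4543 UMIs. They held Chl1 at 19.3 CPM in both libraries and Saa3 at 586 and 480 CPM. The part of depth in these levels was not tested. Normal FBs came from PBS lung, where Chl1 was nearly undetected, and were cultured with type 2 cells.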
